A study of Mus musculus with 7 samples.

Results

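The tricarboxylic acid cycle oxidises acetyl-CoA in the mitochondrial matrix and hands the electrons to the respiratory chain as NADH and reduced flavin. Slow-twitch muscle such as the soleus is rich in mitochondria and holds its enzymes at high levels. The genes described are Cs, Idh3a, Idh3b, Idh3g, Ogdh, Suclg1, Sucla2, Fh1 and Mdh2, chosen by symbol as 9 of the 29869 genes in the deposited table, and all 9 were present and passed the filter on low counts. They encode citrate synthase, the 3 subunits of NAD-dependent isocitrate dehydrogenase, the E1 subunit of 2-oxoglutarate dehydrogenase, the alpha subunit and the ADP-forming beta subunit of succinyl-CoA ligase, fumarase and mitochondrial malate dehydrogenase.

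RNA was sequenced from whole soleus of mice 60 days old, with 3 libraries labelled mdx/Runx1f/f and 4 labelled mdx. Every animal carried mdx, the mutation that removes dystrophin and models Duchenne muscular dystrophy, so no library is of healthy muscle. The label of the first group adds floxed alleles of Runx1, a transcription factor gene induced in damaged muscle. The labels name no Cre driver and no deleted part of the gene. Runx1 transcript was higher in that group, at 919, 925 and 596 normalised counts in the libraries labelled mdx/Runx1f/f and 274, 273, 235 and 201 in those labelled mdx, so each group carries its label and not a genotype in what follows. Other labels of the series disagree with the sample titles used here: the description field would place animals 373, 374 and 375 in mdx/Runx1f/f and animals 358, 359, 361 and 363 in mdx, and the design text counts 4 animals in mdx/Runx1f/f and 3 in mdx. Grouped by the description field, the median log2 fold change of the 9 genes was 0.36 and not -0.47. The authors' deposited fold changes followed the split of animals in the titles. They ran from -0.53 for Cs to -0.23 for Idh3a, beside -0.55 and -0.24 here. The authors' table called 1666 genes higher and 1172 lower, and edgeR grouped by the description field called 5 and 3. Whether the names of the groups were exchanged cannot be read from these values. The design count of 4 and 3 would be met if the titles of the groups were exchanged, and every direction below would then be reversed. Each direction below therefore rests on the titles.

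Total counts were between 16218306 and 20847902 per library. The 9 genes held 0.561%, 0.493% and 0.568% of all counts in the libraries labelled mdx/Runx1f/f, against 0.621%, 0.636%, 0.725% and 0.761% in those labelled mdx. The share was lower in every library labelled mdx/Runx1f/f. Raw counts of the 9 genes were between 4145 and 32586 in a library, so counting error was small beside the spread between animals. Because whole muscle was used, fewer fibres and less RNA per fibre cannot be told apart.

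All 9 genes had a lower mean in the libraries labelled mdx/Runx1f/f, with log2 fold changes between -0.55 and -0.24 and a median of -0.47, but none passed the threshold of an adjusted p below 0.05 in edgeR's quasi-likelihood test. Over all 14033 genes tested the median was -0.0016, 50.2% had a log2 fold change below 0 and 1.85% were called lower. At an unadjusted p below 0.05, 5 of the 9 genes were lower, beside 12.4% of all tested genes. These were Idh3g, Fh1, Idh3b, Ogdh and Cs. DESeq2 on the same counts called the same 5 lower, beside 5.79% of genes with an adjusted p, and limma-voom called 0, beside 2.05%. In the authors' deposited table the same 5 of the 9 had an adjusted p below 0.05 with a negative fold change, beside 7.85% of its genes with an adjusted p. No gene of the 9 was called higher, beside 5.1% of genes in edgeR, 9.77% in DESeq2 and 5.24% in limma-voom, or was higher at an unadjusted p below 0.05, beside 17.1%. Abundant genes as a class leaned the same way. A mean CPM at or above that of the lowest of the 9 was found for 410 tested genes. CPM is the count scaled by the total of its library and by the TMM factor that edgeR gives that library. Of the 410 genes, 75.9% had a log2 fold change below 0, and their median was -0.25. At an unadjusted p below 0.05, 33.2% of them were lower, while edgeR called 2.68% lower and DESeq2 23.9%.

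**Figure D1:**
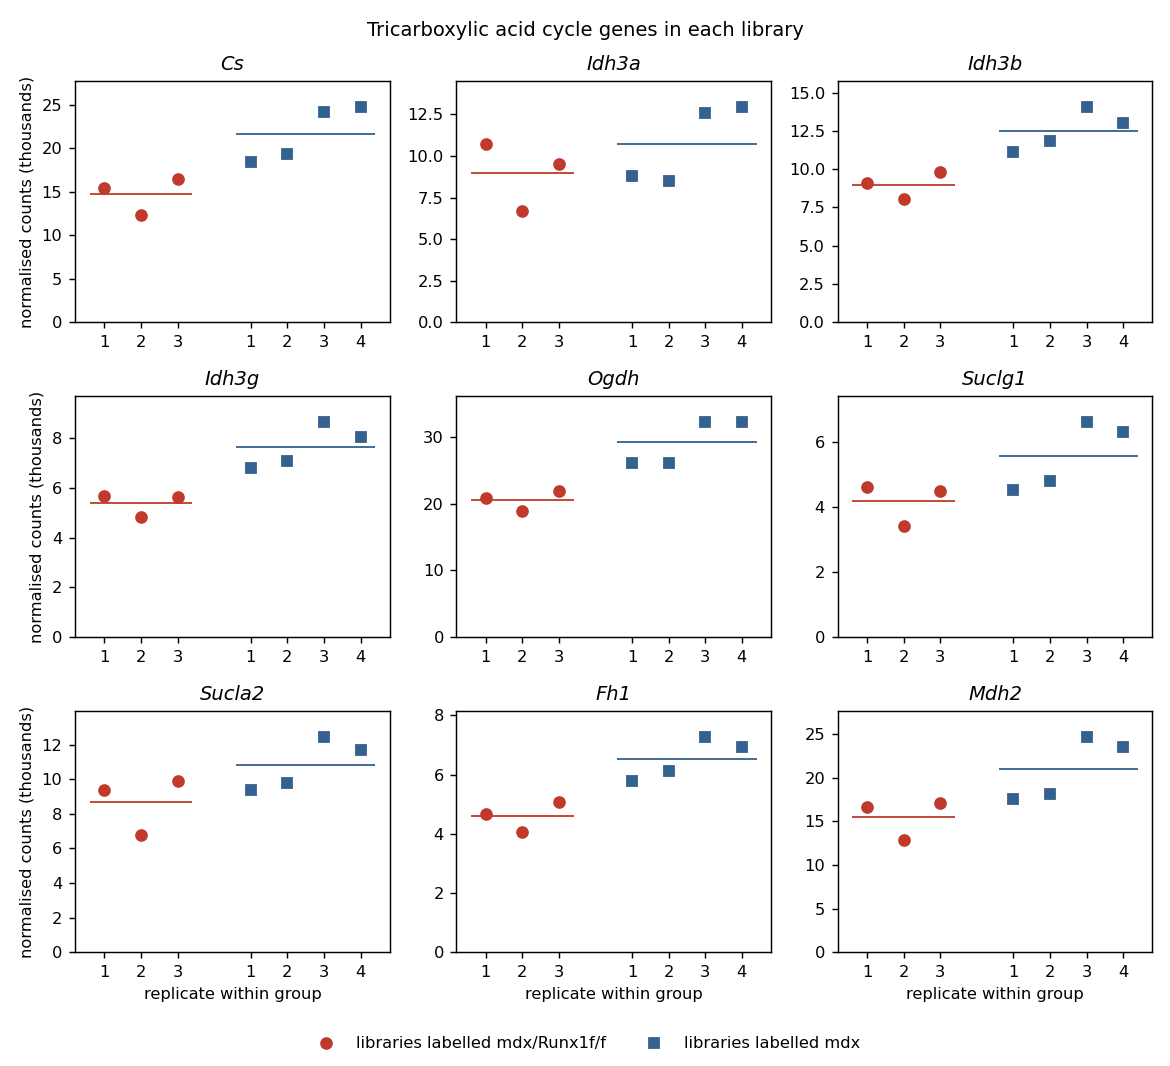
Normalised counts of the 9 genes (y axis, scale as labelled, from 0) in each library (x axis, replicate number within group); red circles are the 3 libraries labelled mdx/Runx1f/f, blue squares the 4 labelled mdx, and lines are group means. The groups do not overlap for 6 genes and overlap for Idh3a, Suclg1 and Sucla2. Libraries labelled mdx/Runx1f/f all lay below for 13.6% of all tested genes and 31.7% of the 410 abundant ones.

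Cs encodes the enzyme that joins acetyl-CoA to oxaloacetate, the entry step of the cycle. It had 15449.9, 12286 and 16430.5 normalised counts in the libraries labelled mdx/Runx1f/f, against 18388, 19308, 24103 and 24736 in those labelled mdx. The groups did not overlap, and both groups spread widely: 14722 ± 2166 (SD, n = 3) against 21634 ± 3249 (SD, n = 4). Its log2 fold change of -0.55 (SE 0.18) was the furthest from 0 among the 9 genes, with an edgeR adjusted p of 0.0919. The adjusted p was between 0.0142 and 0.300 over the 18 other settings and DESeq2 was the only one of them that called the gene.

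NAD-dependent isocitrate dehydrogenase makes 2-oxoglutarate and is built from the catalytic subunit Idh3a with Idh3b and Idh3g. Idh3b had 9084, 8053 and 9835 normalised counts in the libraries labelled mdx/Runx1f/f and 11110.5, 11830.2, 14067 and 13005 in those labelled mdx. Idh3g had 5662, 4828 and 5630.5 against 6811, 7077, 8649 and 8033. For both genes every library labelled mdx/Runx1f/f was below every library labelled mdx. The log2 fold changes were -0.47 (SE 0.14, adjusted p = 0.0722 in edgeR) for Idh3b and -0.50 (SE 0.13, adjusted p = 0.0557 in edgeR) for Idh3g. Over the 18 other settings these adjusted p-values ranged from 0.00534 to 0.252 and from 0.00273 to 0.252, and both were called by DESeq2 and by the fit with a term for the series of animal numbers.

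The catalytic subunit Idh3a was the most variable of the 3. Idh3a had 10701, 6703 and 9536 normalised counts in the libraries labelled mdx/Runx1f/f, against 8797, 8486, 12597 and 12950.1 in those labelled mdx, so the groups overlapped. The difference between groups, -0.24 on the log2 scale (SE 0.23, adjusted p = 0.505 in edgeR), was the nearest to 0 of the 9, and the gene was called under none of the 18 other settings (adjusted p between 0.151 and 0.967). The log2 ratio of Idh3g to Idh3b stayed between -0.80 and -0.68 in all 7 libraries. That of Idh3a to Idh3b was 0.24, -0.26 and -0.04 in the libraries labelled mdx/Runx1f/f and -0.34, -0.48, -0.16 and -0.01 in those labelled mdx, a range of 0.72. The widest departure was mdx/Runx1f/f replicate 1, the library with the highest summed level of fast-fibre markers. A link between these values was not tested.

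The promoter windows of Idh3b and Idh3g are shown because the counts of these genes kept nearly the same ratio in every library. Each runs 250 bases before to 50 bases after the start site, on the minus strand of GRCm38.p6 (RefSeq), at chr2:130284402-130284701 for Idh3b and chrX:73786848-73787147 for Idh3g. Capitals mark CCGGAAG, the core letters bound by Ets-family factors such as Gabpa, on either strand.
Idh3b: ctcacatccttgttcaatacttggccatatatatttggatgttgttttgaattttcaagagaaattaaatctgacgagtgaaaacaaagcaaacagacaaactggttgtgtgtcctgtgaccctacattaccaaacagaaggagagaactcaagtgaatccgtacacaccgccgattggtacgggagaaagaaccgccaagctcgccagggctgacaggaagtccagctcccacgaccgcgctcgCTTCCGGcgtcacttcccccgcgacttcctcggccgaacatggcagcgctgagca
Idh3g: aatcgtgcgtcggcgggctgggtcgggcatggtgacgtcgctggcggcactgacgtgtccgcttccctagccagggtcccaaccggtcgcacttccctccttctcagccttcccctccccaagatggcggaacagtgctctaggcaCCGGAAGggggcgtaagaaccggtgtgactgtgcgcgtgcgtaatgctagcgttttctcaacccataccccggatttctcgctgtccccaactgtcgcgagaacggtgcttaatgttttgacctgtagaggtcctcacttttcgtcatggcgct
A window was found for 8 of the 9 genes, all but Idh3a, and these letters lie in the windows of 2 of the 8, against 9.93% of the 27025 genes with such a window. The match starts 104 bases before the start site in Idh3g and, on the opposite strand, 5 bases before it in Idh3b. Searched in the same way, AAGGTCA, the half-site of estrogen-related receptors, lies in a window of 1 of the 8 genes (Ogdh), against 5.38% of genes. CCAAT lies in 4 of the 8, against 41.1%, TGCGCA, the half-site of Nrf1, in 2, against 8.79%, and ATGGCGG, the core of Yy1, in 3, against 4.69%. These 5 motifs were all that were searched, and Ogdh has 6 windows where the other 7 genes have 1 each. A match is a string of letters and not a shown site. The log2 ratio of Fh1 to Ogdh was about as steady, with a range of 0.13 beside 0.12 for Idh3g to Idh3b. Idh3b itself correlated most closely with Fh1. The windows of Fh1 and Ogdh do not hold CCGGAAG. Of the other cycle genes described below, 7 have a window. CCGGAAG lies in 3 of these 7, TGCGCA in 3, CCAAT in 5, AAGGTCA in 1 and ATGGCGG in 0.

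Ogdh, the thiamine-dependent subunit of the complex that turns 2-oxoglutarate into succinyl-CoA, had 20765, 18937.5 and 21839.8 normalised counts in the libraries labelled mdx/Runx1f/f and 25994, 26127, 32226 and 32169 in those labelled mdx. The groups did not overlap and differed by -0.50 on the log2 scale (SE 0.15), with an adjusted p of 0.0833 in edgeR and of 0.0031 to 0.310 across the 18 other settings. Its partner subunits in the complex, Dlst and Dld, had log2 fold changes of -0.34 and -0.39 and were not called (adjusted p of 0.174 and 0.159 in edgeR).

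Succinyl-CoA ligase is the cycle's step of substrate-level phosphorylation, and its beta subunit decides whether ADP or GDP is used. The shared alpha subunit Suclg1 had 4622, 3406 and 4495 normalised counts in the libraries labelled mdx/Runx1f/f and 4530.4, 4785, 6610.2 and 6284 in those labelled mdx. The ADP-forming Sucla2 had 9385, 6788 and 9882 against 9382, 9804, 12469.6 and 11709. For both genes the groups overlapped, since replicates 1 and 3 labelled mdx/Runx1f/f stood near replicates 1 and 2 labelled mdx. The log2 fold changes were -0.40 (SE 0.18, adjusted p = 0.182 in edgeR) and -0.31 (SE 0.18, adjusted p = 0.276 in edgeR), and none of the 18 other settings called either gene.

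The GDP-forming beta subunit Suclg2, which stands outside the 9 genes, fell and was the only one of the 17 cycle genes described that edgeR called. DESeq2 called 5 of the 9 and 5 of the 8 others. Over all genes with an adjusted p, 1.85% were called lower in edgeR and 5.79% in DESeq2. Suclg2 had 429.9, 498 and 603 normalised counts in the libraries labelled mdx/Runx1f/f, against 739.6, 762, 798 and 734 in those labelled mdx. Its log2 fold change was -0.57 (SE 0.12, adjusted p = 0.0335 in edgeR). The call held without mdx/Runx1f/f replicate 3 and ended without any other single library (adjusted p between 0.0303 and 0.110 in edgeR over the 7 fits), and it ended with scaling by library totals (0.0646). Sucla2 counts were 21.8, 13.6 and 16.4 times those of Suclg2 in the libraries labelled mdx/Runx1f/f and 12.7, 12.9, 15.6 and 15.9 times in those labelled mdx. The log2 ratio averaged 4.08 ± 0.34 (SD, n = 3) against 3.83 ± 0.18 (SD, n = 4), a difference of 0.26 with a two-sided exact permutation p of 0.2 (0.2 adjusted over the 2 ratios tested), where 35 splits allow no p below 0.0286. After the adjustment neither ratio could fall below 0.05 unless both stood at their most extreme split. The test therefore could hardly detect a change, and no conclusion on the balance of the beta subunits was drawn.

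Fumarase, encoded by Fh1, and mitochondrial malate dehydrogenase, encoded by Mdh2, close the cycle. Fh1 had 4655, 4062 and 5085 normalised counts in the libraries labelled mdx/Runx1f/f and 5780.3, 6131, 7281 and 6947 in those labelled mdx, with no overlap between the groups (log2 fold change -0.50, SE 0.13, adjusted p = 0.0577 in edgeR, and 0.00443 to 0.212 over the 18 other settings). Mdh2 had 16659, 12841 and 17131 against 17569, 18126, 24716 and 23513, where the highest library of the first group stood just under the lowest of the second. Its log2 fold change was -0.42 (SE 0.19, adjusted p = 0.177 in edgeR). Mdh1, the cytosolic malate dehydrogenase of the malate-aspartate shuttle, had a log2 fold change of -0.57 (adjusted p = 0.0848 in edgeR).

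**Figure D2:**
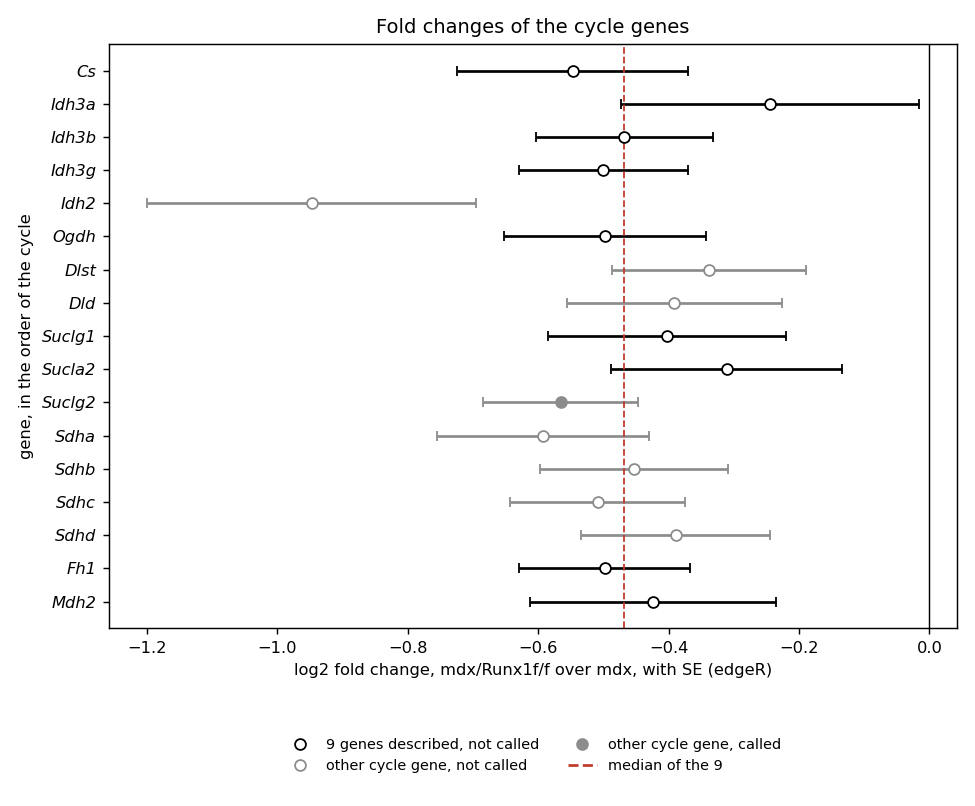
Log2 fold change (x axis, mdx/Runx1f/f over mdx, with SE from edgeR) of the 9 genes in black and of 8 other cycle genes in grey, in the order of the cycle from top to bottom; filled points passed an adjusted p below 0.05 in edgeR and the dashed line is the median of the 9, at -0.47. All 17 values lie below 0, beside 50.2% of all tested genes, and 1, Suclg2, was called lower by edgeR, beside 1.85%.

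The other cycle genes described were Idh2, Dlst, Dld, Suclg2 and the succinate dehydrogenase subunits Sdha, Sdhb, Sdhc and Sdhd. Of these 8 genes, 1 fell and 0 rose in edgeR, beside 1.85% and 5.1% of all tested genes. At an unadjusted p below 0.05, 7 were lower, beside 12.4% of all tested genes and 33.2% of the 410 abundant ones. Their median log2 fold change was -0.48, beside -0.47 for the 9 genes described and -0.0016 for all tested genes. DESeq2 called 5 of the 8 lower, beside 5.79% of genes with an adjusted p and 23.9% of the 410 abundant ones. Sdha, the flavoprotein subunit, stood at a log2 fold change of -0.59 (adjusted p = 0.0647 in edgeR), Sdhc -0.51, Sdhb -0.45 and Sdhd -0.39. Every library labelled mdx/Runx1f/f was below every library labelled mdx for 6 of the 9 genes described and for 7 of the 8 others, beside 13.6% of all tested genes and 31.7% of the 410 abundant ones. The reverse, with every library labelled mdx/Runx1f/f above, held for 0 of these 17 genes, beside 13.9%. Suclg2, with a mean of 652 normalised counts, is less abundant than the 410 genes, so their shares do not match its level.

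Idh2 encodes the NADP-dependent isocitrate dehydrogenase of mitochondria, which supplies NADPH. It had 8169.6, 15949 and 17286 normalised counts in the libraries labelled mdx/Runx1f/f and 25229, 27827, 28493 and 25294 in those labelled mdx, a log2 fold change of -0.95 (SE 0.25, adjusted p = 0.0596 in edgeR, and 0.00306 to 0.207 over the 18 other settings). Replicate 1 labelled mdx/Runx1f/f was low beside replicates 2 and 3. The log2 ratio of Idh3a to Idh2 was 0.39, -1.25 and -0.86 in the libraries labelled mdx/Runx1f/f and -1.52, -1.71, -1.18 and -0.97 in those labelled mdx. The groups overlapped and the difference of 0.77 had a two-sided exact permutation p of 0.143 (0.2 adjusted over the 2 ratios tested). Without mdx/Runx1f/f replicate 1 the difference was 0.29.

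**Figure D3:**
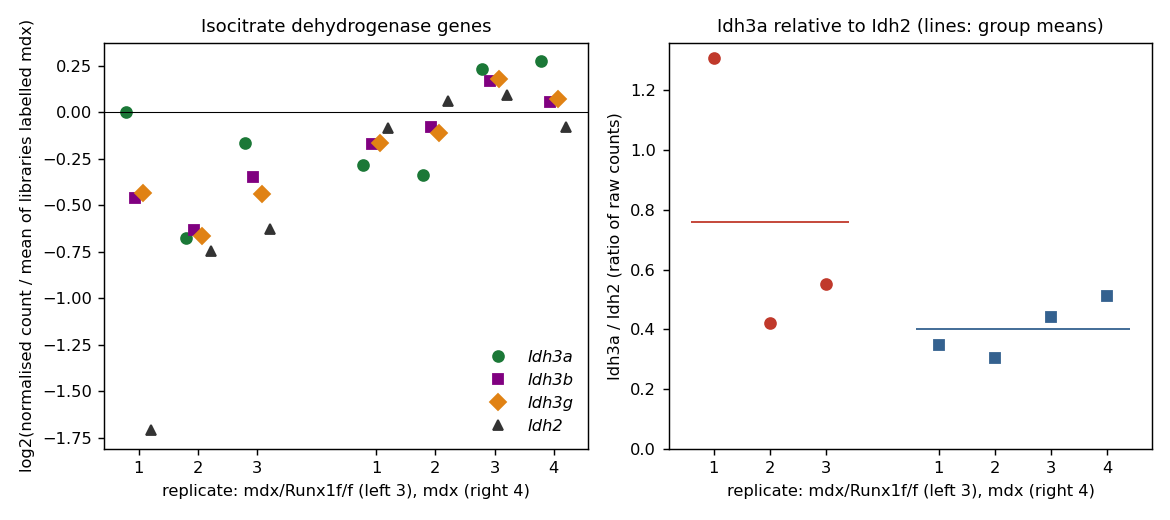
Left, normalised counts of 4 isocitrate dehydrogenase genes as log2 of the ratio to their mean in the libraries labelled mdx (y axis) in each library (x axis). Right, the ratio of raw Idh3a to Idh2 counts (y axis, from 0; red circles mdx/Runx1f/f, blue squares mdx). In mdx/Runx1f/f replicate 1 Idh3a is at 10701 normalised counts and Idh2 at 8169.6, the only library where Idh3a exceeds Idh2.

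Levels could be set side by side per length, using the exon length in GENCODE M21, which need not match the authors' annotation. In the libraries labelled mdx, Mdh2 was the highest of the 9 genes at 14410.2 ± 2513 normalised counts per kb of exon (SD, n = 4). Idh3b, Cs and Ogdh followed at 7737 ± 806, 7394 ± 1110.4 and 6547 ± 797. Idh3b differed from Cs by less than the SD of either gene, and it was above Ogdh in each library. Idh3g was at 5742 ± 640, Sucla2 at 4864 ± 666, Idh3a at 4150.2 ± 928, Suclg1 at 3655 ± 689 and Fh1 at 2479 ± 265. The order in the libraries labelled mdx/Runx1f/f was the same, with Mdh2 at 10676 ± 1616 and Fh1 at 1745 ± 195 (SD, n = 3). Suclg2, at 136 ± 23.2 in the libraries labelled mdx/Runx1f/f and 202 ± 7.72 in those labelled mdx, was far below Sucla2.

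The libraries labelled mdx were not uniform. For each of the 9 genes replicates 3 and 4 (animals 373 and 375) stood above replicates 1 and 2 (animals 358 and 361), by 0.24 to 0.56 on the log2 scale with a median of 0.33, beside a median difference of -0.47 between the groups. The pairs differ in animal number and also in the description field, which would place animals 373 and 375 in mdx/Runx1f/f and animals 358 and 361 in mdx. Within animals 358 to 363, 2 libraries of each group, the log2 fold changes of the 9 genes were between -0.44 and 0.02, with a median of -0.38. Idh3a was the gene at 0.02. Within animals 373 to 375, 1 library labelled mdx/Runx1f/f against 2, they were between -0.57 and -0.29, with a median of -0.49. Within animals 358 to 363 edgeR called 0 genes among all 14051 tested, so its 0 calls among the 9 say nothing about these genes in particular. With a term for the series, 3 of the 9 (Fh1, Idh3g and Idh3b) were called lower by edgeR, at adjusted p-values of 0.0281, 0.0363 and 0.0439, beside 4.15% of all tested genes.

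The 9 genes followed each other across libraries. Over the 7 libraries the correlation of log2 CPM between pairs of them had a median of 0.95, from 0.73 for Idh3a with Idh3b to 1.00 for Idh3b with Fh1. These points share library, depth and group, and no test was made. Of 9499 other named genes with a mean of at least 100 normalised counts, the closest to the mean profile of the 9 were Eif2b4, Ahsa1, Snx19, Fars2, Coq9, Uqcrfs1, Ndufb8 and Mto1, at Pearson's r of 0.995 to 0.992. The 3 nearest do not encode mitochondrial enzymes: Eif2b4 encodes a subunit of a translation initiation factor, Ahsa1 a co-chaperone of Hsp90 and Snx19 a sorting nexin. Coq9 acts in coenzyme Q synthesis, Uqcrfs1 and Ndufb8 encode subunits of respiratory complexes III and I, Fars2 a mitochondrial tRNA synthetase and Mto1 a mitochondrial tRNA-modifying enzyme. Sdhd stood at rank 9 and Sdhb at rank 18, while Suclg2 (r = 0.75, rank 1657) and Idh2 (r = 0.59, rank 2695) were the cycle genes farthest from the profile. With the group means removed, r was 0.19 for Suclg2 and -0.19 for Idh2. For the other cycle genes outside the 9 it was then between 0.93 (Dld) and 0.99 (Sdhb).

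The steps that feed the cycle were read from lists of pyruvate, ketone, anaplerotic and carrier genes. Over all genes with an adjusted p, edgeR called 1.85% lower and 5.1% higher. DESeq2 called 5.79% and 9.77%, and limma-voom 2.05% and 5.24%. Of 10 tested genes of the pyruvate dehydrogenase complex and its regulators, 1 fell and 0 rose in edgeR, DESeq2 and limma-voom alike, with a median log2 fold change of -0.33. Pdk2, a kinase that switches the complex off, was the called gene, at 7355, 6131 and 6739.9 normalised counts in the libraries labelled mdx/Runx1f/f and 10026, 9343, 11926 and 10007 in those labelled mdx (log2 fold change -0.61, adjusted p = 0.0363 in edgeR). Of 3 ketone body genes edgeR called 1 lower, and DESeq2 and limma-voom 2 each. The edgeR call was Acat1, the mitochondrial acetoacetyl-CoA thiolase, at -0.62 (adjusted p = 0.0348 in edgeR). Oxct1, which activates ketone bodies to their CoA form, had a log2 fold change of -0.73, with adjusted p-values of 0.0518 in edgeR, 0.00156 in DESeq2 and 0.0467 in limma-voom. Of 13 anaplerotic genes edgeR and limma-voom each called 1 lower and 0 higher, and DESeq2 called 3 lower and 1 higher, with a median of -0.10. The edgeR call was Pccb, the beta subunit of propionyl-CoA carboxylase, at 1424, 1293 and 1401 against 1800.3, 1866, 1879 and 1845 normalised counts (log2 fold change -0.42, adjusted p = 0.0269 in edgeR).

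Among carriers of the inner mitochondrial membrane the called genes were higher. Of 8 tested, edgeR and DESeq2 each called 2 higher and 0 lower and limma-voom 1 higher, with a median log2 fold change of -0.32. The shares called higher over all genes with an adjusted p were 5.1% in edgeR, 9.77% in DESeq2 and 5.24% in limma-voom. Slc25a1, the citrate carrier that exports citrate to the cytosol, rose to 136, 212 and 282 normalised counts in the libraries labelled mdx/Runx1f/f, against 116, 101, 89.4 and 105 in those labelled mdx (log2 fold change 1.03, adjusted p = 0.0408 in edgeR and 0.0550 in limma-voom). Slc25a10, the dicarboxylate carrier, rose to 255, 284 and 362 against 217, 188, 184 and 157 (0.69, adjusted p = 0.0421 in edgeR). Of 4 cytosolic counterparts 0 passed in edgeR and in limma-voom. DESeq2 called 1 each way, and 1 each way had an unadjusted p below 0.05, beside 12.4% lower and 17.1% higher among all tested genes. Acly, which splits the exported citrate in the cytosol, had a log2 fold change of 0.57 (adjusted p = 0.0598 in edgeR) against the -0.57 of Mdh1. Each of these 5 called genes lost its call in at least 4 of 7 fits with 1 library removed, at adjusted p-values in edgeR of up to 0.121 for Pdk2, 0.111 for Acat1, 0.0866 for Pccb, 0.115 for Slc25a1 and 0.107 for Slc25a10, each without mdx/Runx1f/f replicate 2 or mdx replicate 3.

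Regulators and general mitochondrial genes gave no edgeR call. Over all genes with an adjusted p, 1.85% were called lower in edgeR, 2.05% in limma-voom and 5.79% in DESeq2. At an unadjusted p below 0.05, 12.4% of all tested genes were lower. Of 9 tested regulators of mitochondrial genes, 0 passed in edgeR and in limma-voom and 1 in DESeq2, 5 were lower at an unadjusted p below 0.05, and the median was -0.35. They included the nuclear receptor gene Ppara at -0.82 (adjusted p = 0.0747 in edgeR) and Tfam, the mitochondrial DNA transcription factor, at -0.35 (adjusted p = 0.107 in edgeR). Ppargc1a was listed at 0 in every library, and whether annotation or counting set that value is not known here. Of 10 genes of the outer membrane channels, import, chaperones and inner-membrane scaffolds, 0 passed in edgeR and in limma-voom, 3 passed in DESeq2 and 6 were lower at an unadjusted p below 0.05, with a median of -0.30. The channel gene Vdac1 had a log2 fold change of -0.55 (adjusted p = 0.0658 in edgeR) and Vdac3 -0.43 (adjusted p = 0.0824 in edgeR).

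Marker levels of some other cell types differed between the groups. Over all genes with an adjusted p, edgeR called 1.85% lower and 5.1% higher, limma-voom 2.05% and 5.24%, and DESeq2 5.79% and 9.77%. At an unadjusted p below 0.05, 12.4% of all tested genes were lower and 17.1% higher. The 7 myofibre markers, all detected, summed to 66774 to 81007 CPM in the libraries labelled mdx/Runx1f/f and 82868 to 101942 in those labelled mdx, with 0 calls in edgeR and in limma-voom, 1 lower in DESeq2 and 1 lower at an unadjusted p below 0.05. The 7 slow-fibre markers summed to 7519 to 26433 against 28238 to 47913 CPM, with 4 lower at an unadjusted p below 0.05, 0 calls in edgeR and in limma-voom and 3 lower in DESeq2. The 10 fast-fibre markers summed to 35942 to 86185 against 32091 to 55514 CPM, with 2 higher at an unadjusted p below 0.05, 0 calls in edgeR and in limma-voom and 1 higher in DESeq2. Of 7 stromal markers 6 rose in edgeR and in limma-voom and 7 in DESeq2, at 5803 to 6935 against 1879 to 2930 CPM, and of 11 macrophage markers 3 rose in edgeR and in limma-voom and 7 in DESeq2, at 795 to 2152 against 195 to 807 CPM. Of 6 white adipocyte markers 4 rose in edgeR, 2 in limma-voom and 5 in DESeq2, at 104 to 358 against 31.7 to 74.4 CPM. Of 4 endothelial markers 0 were called by any of the tools and 0 passed at an unadjusted p below 0.05, at 448 to 620 against 387 to 796 CPM. Of 2 brown adipocyte markers Ucp1 was listed at 0 in every library, which annotation or counting may have set. Cidea had 121 to 179 raw counts and was not called (adjusted p = 0.275 in edgeR). Among 4 Schwann markers 2 rose in edgeR and in limma-voom and 3 in DESeq2, at 202 to 230 against 121 to 159 CPM. The 3 immature-fibre markers summed to 279 to 886 against 192 to 556 CPM, with 2 higher at an unadjusted p below 0.05. They had 0 calls in edgeR and in limma-voom and 1 higher in DESeq2. None of the 4 T cell markers passed the filter on low counts.

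**Figure D4:**
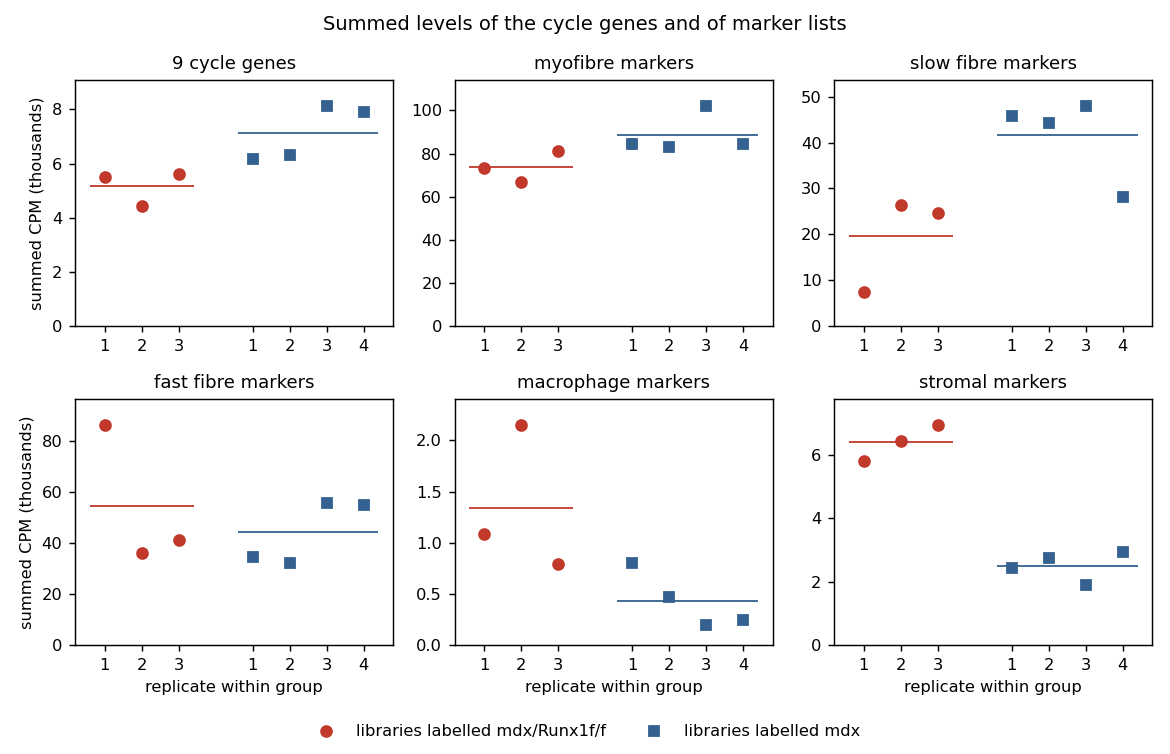
Summed CPM (y axis, scale as labelled, from 0) of the 9 cycle genes and of 5 marker lists in each library (x axis, replicate within group); red circles are libraries labelled mdx/Runx1f/f, blue squares those labelled mdx, and lines are group means. The cycle genes sum to 4450 to 5604 CPM in the libraries labelled mdx/Runx1f/f and 6157 to 8115 in those labelled mdx. Macrophage markers are highest in mdx/Runx1f/f replicate 2, where the cycle genes are lowest. They are near each other in mdx/Runx1f/f replicate 3 and mdx replicate 1 (795 and 807 CPM), where the cycle genes are at 5604 and 6157. A link between these levels was not tested.

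Set against the myofibre markers, the difference was smaller. The log2 ratio of the summed counts of the 9 genes to those of the 7 myofibre markers was -3.74, -3.91 and -3.85 in the libraries labelled mdx/Runx1f/f and -3.78, -3.72, -3.65 and -3.42 in those labelled mdx. The groups overlapped, and the mean difference was -0.19, beside the median log2 fold change of -0.47 on the scale of all genes. This ratio was chosen after the data were seen and was not tested. The log2 fold changes of the 7 markers ran from -0.64 for Tcap to 0.005 for Des, with 6 below 0. Acta1, the most abundant, was at -0.31 and Ckm at -0.006, so the ratio depends on which markers carry the sum. The part of cell composition and fibre type in the differences of the 9 genes was not tested.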

How the data were processed

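RNA-seq of whole soleus was analysed from 1 deposited table of 29869 genes for 7 libraries. Raw counts per gene were made by the authors with TopHat2 2.0.10 and HTSeq on mm9, as the submitters' processing notes list them, per the labels. Further columns hold the deposited signal, each count divided by 1 size factor per library, here called normalised counts. The authors' log2 fold changes and adjusted p-values come from the same deposited table, and the notes name DESeq2 1.6.3. Annotation, strand setting and filters were not given in the sources used here; genes with near-identical copies or overlapping genes are uncertain. Groups and replicate numbers came from the sample titles, which name 7 animals, and columns were joined by animal number.

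In R 4.3.3, edgeR 4.0.16 was run on the counts with filterByExpr, TMM scaling and a quasi-likelihood test of group, with no covariate, adjusted by Benjamini-Hochberg over 14033 genes and called below 0.05. SE is the fold change over the root of F. DESeq2 1.42.0, limma-voom (limma 3.58.1), other scalings and filters, covariates and left-out libraries were alternatives. The step was tested on simulated data. Log2 CPM used a prior count of 2. Mpc1, Mpc2 and Adgre1 were matched by older symbols through RefSeq. Named were the 17 cycle genes described, Runx1, the called members of each further list (at most 4 by p, or the 2 with the smallest p where none was called), and the 8 genes nearest in profile. Ppargc1a, Ucp1, Cidea, Oxct1, Myh4, Actn3 and Pvalb were named after their values were seen. An item of the cycle is not reported here. The 9 genes, the lists and the rule were chosen with earlier results of these data known.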

Additional observations from a re-analysis of the deposited data

How the results depend on the processing

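The median log2 fold change of the 9 genes stayed below 0 in all 18 alternatives that keep the titles, from -0.54 to -0.36, and Idh3a was the 1 gene to change sign, at 0.0240 within animals 358 to 363. Grouped by the description field, an alternative chosen after seeing the data, that median was 0.36, with 5 genes higher and 3 lower among all tested and 0 of the 8 other cycle genes called. The main edgeR fit called 715 genes higher and 260 lower. DESeq2 called 1472 and 872, with 5 of the 9 genes and 5 of the 8 other cycle genes lower. With a term for the series of animal numbers there were 1246 and 582, with 3 and 4 lower. Animals 358 to 363 alone gave 0 and 0 by edgeR, and animals 373 to 375 alone, where the lone library labelled mdx/Runx1f/f is assumed to vary like the others, 1361 and 440, each with 0 other cycle genes called. Library totals alone gave 131 lower genes and 0 other cycle genes called, and shifted the median of all genes by 0.11. Leaving out 1 library gave 173 to 641 higher and 17 to 209 lower genes, 0 calls among the 9 genes and 0 to 1 among the others, and a difference of 0.07 to 0.41 in the log2 ratio of Sucla2 to Suclg2 and of 0.29 to 1.11 in that of Idh3a to Idh2. With the title number as a replicate block there were 240 higher and 80 lower genes and 0 other cycle genes called. Same-numbered libraries deviated together with correlations of -0.0002, 0.29 and 0.29, so the numbers were not read as pairs. The causes of these changes were not tested. No value of the 29 named genes or 2 ratios stood far from the rest among the 4 libraries labelled mdx.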
